A study of Mus musculus with 11 samples.

Results

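The genes described here encode the vesicle fusion machinery of pancreatic islets, namely the synaptotagmins, syntaxins, syntaxin binding proteins, vesicle-associated membrane proteins (VAMPs) and synaptosome-associated proteins (SNAPs). They were chosen by gene symbol alone (*Syt*, *Stx*, *Stxbp*, *Vamp* or *Snap* followed by a number), which gave 52 of the 55536 genes measured, with 17 synaptotagmins, 15 syntaxins, 7 syntaxin binding proteins, 8 VAMPs and 5 genes named *Snap*. One of the latter, *Snap91*, encodes a clathrin assembly protein and shares only the symbol. Islet RNA was measured by bulk RNA-seq in 11 libraries from female wild-type C57BL/6J mice. Of these, 3 were labelled virgin and 4 multipara after S-961, a peptide that blocks the insulin receptor, and 2 were labelled virgin and 2 multipara without it. At the start all mice were 9 weeks old. Those labelled multipara went through 3 pregnancies, had their pups removed after birth and were studied 3 weeks after the last delivery, and virgin mice were of the same age. S-961 was injected into the peritoneum at 100 nmol/kg, 2 times a day for 3 days. The untreated mice received no injection that the labels name, so that S-961 and the injections cannot be told apart. The labels do not say whether replicates came from separate mice, and p-values therefore measure only the spread between these libraries.

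Insulin leaves the beta cell when a secretory granule fuses with the plasma membrane. Fusion is driven by SNARE proteins that zip into a bundle: a VAMP on the granule pairs with a syntaxin and a SNAP on the plasma membrane, and Munc18 proteins (encoded by *Stxbp* genes) hold the syntaxin ready. Synaptotagmins sit on the granule, and those that bind calcium trigger fusion when calcium enters the cell. Other syntaxins and VAMPs carry out the same reaction between endosomes, lysosomes, the Golgi apparatus and the endoplasmic reticulum.

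Total counts ran from 22028507 to 32234146 per library. Islet identity was clear, since *Ins1* and *Ins2* together took 35.3 to 41.4% of the counts without S-961 and 13.2 to 20.7% with it, and glucagon, somatostatin and pancreatic polypeptide were present in every library. Levels are given as counts per 1000000 (CPM) after TMM scaling over all 11 libraries. In bulk islets, fewer cells of a type and less RNA per cell cannot be told apart. The summed level of 13 acinar markers was 2202 to 15690 CPM with S-961 and 120.1 to 237.6 CPM without, and the summed level of 7 alpha cell markers was 14170 to 24380 CPM with S-961 and 26340 to 57280 CPM without. Most of the latter sum was *Gcg*, the glucagon gene. Of the 7 alpha cell markers, 5 fell in virgin islets and none rose, whereas in multipara islets 1 fell (*Gcg*) and 2 rose. The part of these shifts in the results below was not tested. Not every library resembled its own group most. By chi-square per gene, multipara untreated replicate 2 was closer to virgin untreated replicates 1 and 2 (28.6 and 25.6) than to multipara untreated replicate 1 (39.6). Multipara S-961 replicate 1 was closest to virgin S-961 replicate 2 (42.6, against 44.5 or more within its group). Virgin S-961 replicate 3 was closest to multipara S-961 replicate 4 (41.8, against 53.8 and 59.1 within its group). The library labelled multipara S-961 replicate 4 was closer to the libraries labelled virgin S-961 replicates 1 and 2 (chi-square per gene 9.19 and 11.1) than to those labelled multipara S-961 replicates 1 to 3 (53.4 to 88.0). Its 10 cell cycle genes summed to 64.9 CPM, against 214.6 to 497.3 CPM in the latter and 64.4 to 81.6 CPM in virgin S-961. The paper reported cell cycle genes such as *Cdk1* as lower in multipara than in virgin islets after S-961. Under the labels used here, multipara S-961 replicates 1 to 3 showed the reverse order. Every comparison that uses S-961 libraries rests on these labels, which were not tested. The library labelled multipara untreated replicate 1 held 850.6 CPM of 8 macrophage markers and 1319 CPM of 4 red cell markers, against at most 223.0 and 523.5 CPM in every other library. Members whose call with S-961 was lost without multipara S-961 replicate 4 or multipara untreated replicate 1 are named with the counts below.

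The 52 genes together took 0.314 to 0.385% of all counts with S-961 and 0.254 to 0.274% without. Reads were too few to test 4 of them, with totals over all libraries of 39 for *Stx19*, 24 for *Vamp9*, 18 for *Syt10* and 6 for *Syt8*. The other 48 were tested in each comparison. Levels of different genes were compared per kilobase of merged annotated exon, which understates genes whose islet transcript is shorter than that. *Syt13*, a synaptotagmin that does not bind calcium, was by far the most abundant, with 201.2 ± 15.7 (SD, n = 3) CPM per kb in virgin S-961, 217.2 ± 23.9 (n = 4) in multipara S-961, 333.1 ± 3.19 (n = 2) in virgin untreated and 306.4 ± 39.3 (n = 2) in multipara untreated islets, and it ranked 1 in all 4 groups. Other abundant genes over all libraries were *Vamp2*, the classical VAMP of insulin granules, with a mean of 62.4 CPM per kb, *Syt4* with 37.8, *Snap47* with 32.2, *Vamp8* with 31.9 and the calcium sensor *Syt7* with 28.0. In virgin S-961 islets *Vamp7* (28.9 ± 4.15) and *Syt7* (27.9 ± 4.90) did not differ beyond their spread, nor did *Vamp8* (61.1 ± 5.26) and *Vamp2* (60.3 ± 10.5) in multipara untreated islets.

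**Figure D1:**
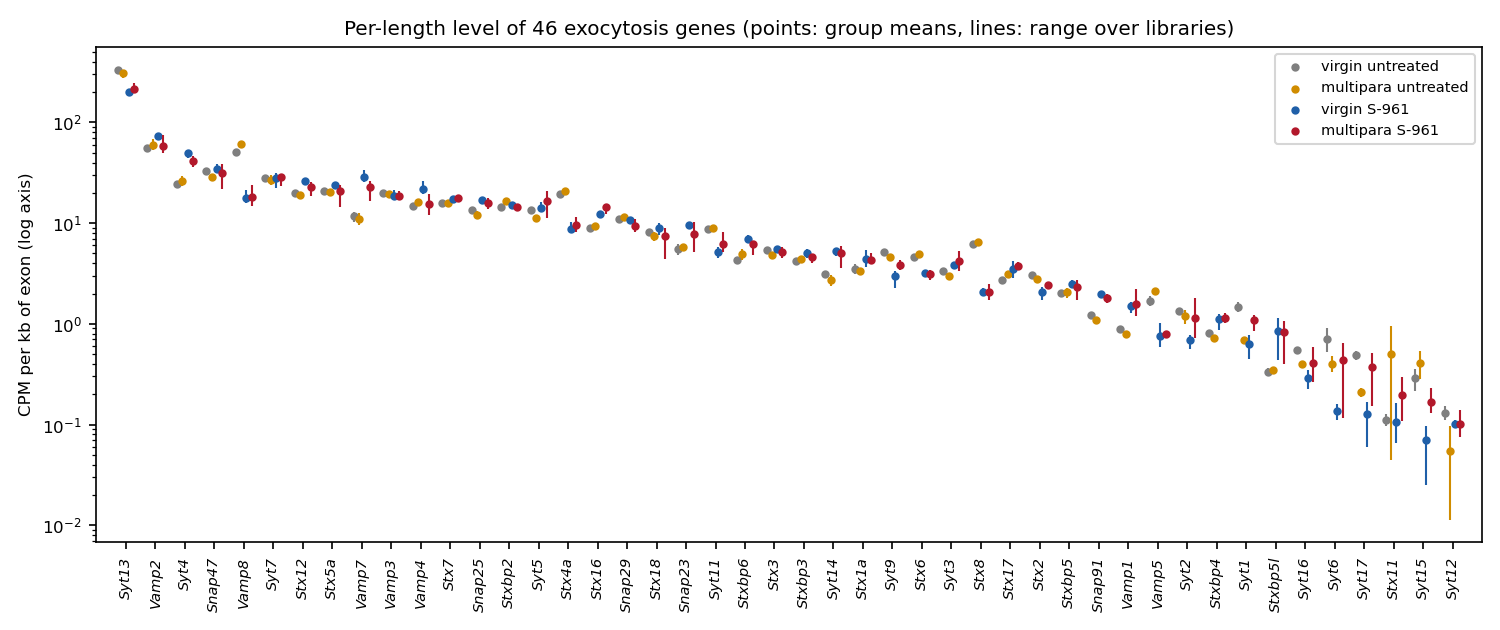
Level of 46 of the tested genes in CPM per kb of exon on a log axis, ordered by the mean over all 11 libraries. Points are group means and vertical lines run from the lowest to the highest library of a group. *Syt13* lies above all others in each group, and *Vamp8*, *Stx4a* and *Stx8* lie lower in both S-961 groups than in both untreated groups.

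The order of the genes differed between treatments, and this is a description without a test. *Vamp8* ranked 3 in virgin and 2 in multipara untreated islets, and 12 and 11 after S-961. *Stx4a*, a plasma membrane syntaxin, ranked 11 and 8 without S-961 and 21 and 18 with it. *Vamp7*, a VAMP of lysosomes and late endosomes, ranked 17 and 18 without S-961 and 6 and 8 with it.

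The effect of S-961 was compared within each parity group, with all 11 libraries in a single edgeR quasi-likelihood fit. In islets labelled virgin, 10 of the 48 genes rose and 14 fell at an adjusted p under 0.05. Over all 17996 genes tested, 36.5% were called, 18.8% as higher and 17.6% as lower, and the median log2 fold change was -0.04 over all genes and 0.08 over these 48. In islets labelled multipara, 9 rose and 7 fell, against 37.6% called over all genes (18.2% higher and 19.4% lower), with medians of 0.03 over all genes and 0.13 over the 48. The libraries of the 2 treatments did not overlap for 38 of the 48 genes in virgin islets (79.2%, against 68.3% of all genes) and for 26 in multipara islets (54.2%, against 49.0%). The counts depended on single untreated libraries. Without virgin untreated replicate 2 the virgin count was 8 in place of 24, and without virgin untreated replicate 1 it was 14. In multipara islets the count was 9 in place of 16 without multipara untreated replicate 1, and 7 without that library and multipara S-961 replicate 4. Insulin transcripts fell with S-961, and scaling by library totals alone, which does not correct for that, moved the median of all genes to 0.43 in virgin and 0.61 in multipara islets. It gave 29 of these genes higher and 6 lower in virgin islets and 30 higher and 4 lower in multipara islets, and over all genes 6409 higher and 1272 lower against 3390 and 3172, and 7787 and 1304 against 3272 and 3496. Directions are therefore stated relative to TMM scaling.

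The same 7 genes rose in both parity groups (*Vamp7*, *Vamp1*, *Syt4*, *Syt14*, *Stxbp5l*, *Stx16* and *Snap91*) and the same 7 fell (*Stx8*, *Vamp8*, *Vamp5*, *Stx4a*, *Stx6*, *Syt13* and *Syt11*). No gene was called in opposite directions. Another 10 were called in virgin islets alone, 2 in multipara islets alone (*Snap25* and *Stxbp4*) and 22 in neither. Both comparisons share one fit but no libraries. Of the 24 and 16 calls, *Stx8*, *Vamp8* and *Stx4a* in both groups, *Syt4*, *Vamp7* and *Snap91* in virgin islets and *Vamp5* and *Stx16* in multipara islets were called under every alternative that was run (12 in virgin and 14 in multipara islets). Over all genes tested, 14.1% rose in both groups, 12.9% fell in both, 0.0556% were called in opposite directions, 9.49% were called in virgin islets alone and 10.6% in multipara islets alone. The shares among the 48 were 14.6, 14.6, 0.0, 20.8 and 4.17%, so that the numbers shared by both groups were close to those of all genes.

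In multipara islets, leaving out the library labelled multipara untreated replicate 1 ended 8 of the 16 calls, those of *Vamp7*, *Vamp1*, *Syt4*, *Syt14*, *Syt11*, *Stxbp4*, *Stxbp5l* and *Snap25*. Leaving out multipara S-961 replicate 4 ended those of *Snap25*, *Stxbp5l* and *Syt11*. Without both libraries 6 of the 16 calls held, for *Stx8*, *Vamp8*, *Stx4a*, *Vamp5*, *Stx6* and *Stx16*. Multipara untreated replicate 2 decided the calls of *Stxbp4*, *Stxbp5l*, *Syt11* and *Syt13*. In virgin islets, 8 calls held without virgin untreated replicate 2, for *Stx8*, *Vamp8*, *Stx4a*, *Syt4*, *Syt13*, *Syt9*, *Vamp7* and *Snap91*, and without virgin untreated replicate 1 the 10 calls lost were those of *Snap23*, *Stx16*, *Stx2*, *Stxbp5l*, *Syt11*, *Syt14*, *Syt16*, *Syt17*, *Vamp1* and *Vamp4*. Single S-961 libraries decided fewer calls, with 2 to 5 lost in virgin and 1 to 3 in multipara islets.

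**Figure D2:**
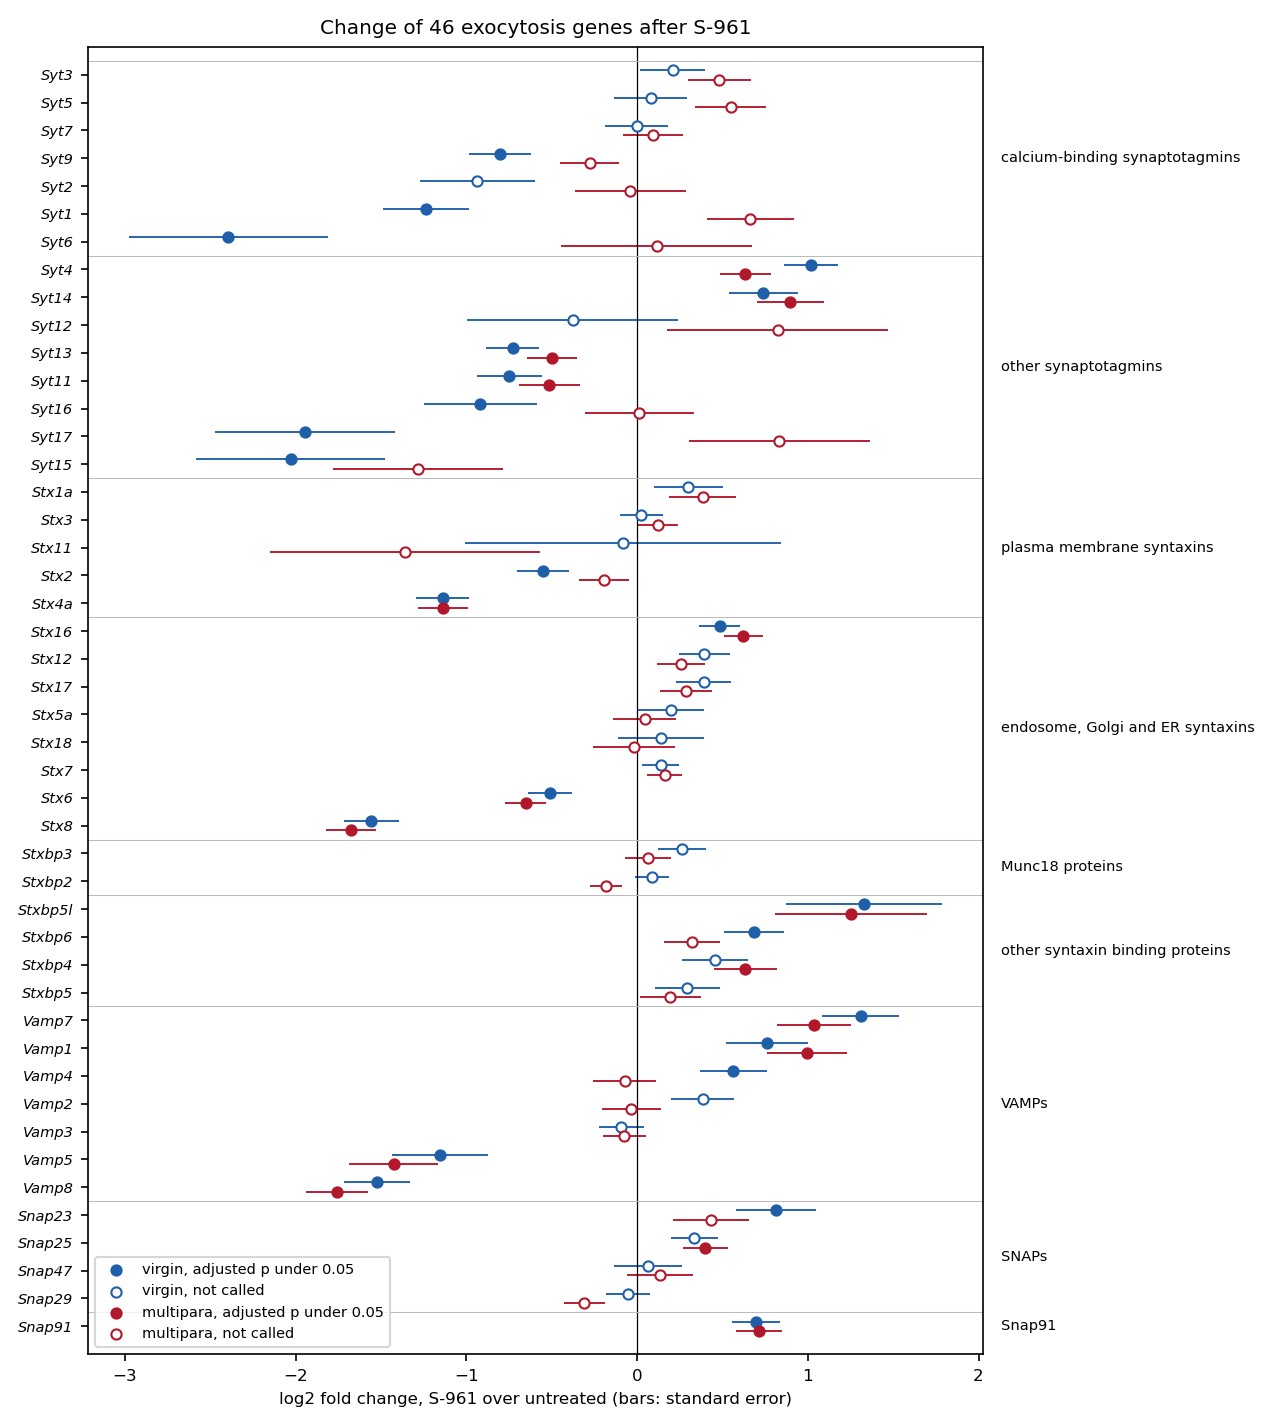
Log2 fold change of S-961 over untreated islets for 46 genes, with virgin in blue and multipara in red, grouped by role. Bars are the standard error of the edgeR fit, filled points have an adjusted p under 0.05 and open points do not. *Stx8*, *Vamp8*, *Vamp5* and *Stx4a* lie furthest to the left in both groups among the genes called in both, and the largest standard errors belong to low genes such as *Stx11*.

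To show the DNA in front of the genes that changed most, the 150 bases upstream of the transcription start are printed for the 4 of the 7 shared falling genes with the largest falls and for the 3 of the 7 shared rising genes with the largest rises among those with an entry in the promoter table. The sequences and the starts are from RefSeq (GRCm38.p6), and the sequences read 5′ to 3′ on the strand of the gene. GENCODE starts can differ. The stretches of *Stx8* and *Stx4a* lie wholly inside the GENCODE genes, which start at 67966193 and 127824294. Those of *Vamp8*, *Vamp1* and *Stxbp5l* reach partly into theirs, which start at 72390703, 125215551 and 37384962. Capitals mark the GC box (GGGCGG), the CCAAT box (CCAAT) and the E-box (CACGTG), each searched on both strands, where copies of the GC box may overlap.
Stx8 (chr11:67966308-67966457, plus strand): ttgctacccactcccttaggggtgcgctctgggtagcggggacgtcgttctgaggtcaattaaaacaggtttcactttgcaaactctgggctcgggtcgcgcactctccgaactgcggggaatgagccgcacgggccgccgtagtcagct
Vamp8 (chr6:72390668-72390817, minus strand): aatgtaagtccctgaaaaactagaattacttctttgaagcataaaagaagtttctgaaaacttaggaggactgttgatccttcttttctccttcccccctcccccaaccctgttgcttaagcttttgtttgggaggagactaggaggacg
Vamp5 (chr6:72380469-72380618, minus strand): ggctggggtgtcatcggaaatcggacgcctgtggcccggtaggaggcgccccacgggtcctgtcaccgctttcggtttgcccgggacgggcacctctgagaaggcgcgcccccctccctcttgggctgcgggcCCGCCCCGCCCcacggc
Stx4a (chr7:127841658-127841807, plus strand): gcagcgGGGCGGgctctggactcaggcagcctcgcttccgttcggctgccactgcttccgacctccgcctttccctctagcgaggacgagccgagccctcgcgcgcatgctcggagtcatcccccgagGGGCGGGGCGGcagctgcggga
Stxbp5l (chr16:37384959-37385108, minus strand): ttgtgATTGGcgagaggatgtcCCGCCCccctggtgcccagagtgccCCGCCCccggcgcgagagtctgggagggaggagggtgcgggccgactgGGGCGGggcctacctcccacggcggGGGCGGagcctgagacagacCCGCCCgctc
Vamp1 (chr6:125215431-125215580, plus strand): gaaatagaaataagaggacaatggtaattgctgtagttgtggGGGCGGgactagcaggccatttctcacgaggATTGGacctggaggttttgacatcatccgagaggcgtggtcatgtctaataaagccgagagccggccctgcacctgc
Syt14 (chr1:193035776-193035925, minus strand): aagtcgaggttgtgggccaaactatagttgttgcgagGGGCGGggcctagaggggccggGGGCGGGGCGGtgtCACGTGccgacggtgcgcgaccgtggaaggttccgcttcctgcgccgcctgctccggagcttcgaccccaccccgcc
The promoters of *Stx8* and *Vamp8* held none of these letters in the stretch shown. The cAMP response element (TGACGTCA) and the TATA box (TATAAA) were searched as well, over 250 bases upstream. Of the 52 genes, 40 had an entry, with 51 promoters in all. A GC box was found in 31 of the 51 (60.8%), against 32.7% of 32851 mouse promoters of the same length. It was found in 4 of the 6 promoters of genes that fell in both groups and in 5 of the 6 of genes that rose in both. The E-box was found in 11.8% against 6.02% of all promoters, the CCAAT box in 33.3% against 33.8%, the TATA box in 3.92% against 12.4% and the cAMP response element in 1.96% against 1.55%. These are matches of letters, and nothing was measured at these sites.

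Among the VAMPs, 3 rose and 2 fell of 7 tested in virgin islets, and 2 rose and 2 fell in multipara islets. *Vamp8* serves the fusion of late endosomes and of secretory granules in exocrine cells, and takes part in insulin granule release. It was at 36.9, 38.2 and 49.2 CPM in virgin S-961 replicates 1 to 3, at 39.9, 54.7, 34.2 and 38.3 CPM in multipara S-961 replicates 1 to 4, at 113.0 and 124.8 CPM in virgin untreated and at 132.7 and 149.9 CPM in multipara untreated islets. Every S-961 library lay below every untreated library. The log2 fold change was -1.52 ± 0.19 (SE) in virgin and -1.76 ± 0.18 in multipara islets (edgeR adjusted p = 0.000381 and 0.000127). Acinar markers, from cells that also express *Vamp8*, were higher in the same S-961 libraries. The summed macrophage markers were lower there, at 82.15 to 166.7 CPM against 193.5 to 850.6 CPM without S-961. The part of any cell type in the fall of *Vamp8* was not tested.

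*Vamp5*, which lies 4754 bases from *Vamp8* on the same strand of chromosome 6, was at 1.58, 1.84 and 2.78 CPM in virgin S-961, at 2.30, 2.24, 2.09 and 1.98 CPM in multipara S-961, at 4.09 and 5.12 CPM in virgin untreated and at 5.58 and 5.99 CPM in multipara untreated islets. It was low in all libraries, and the S-961 and untreated libraries did not overlap. Its log2 fold changes were -1.16 ± 0.28 and -1.42 ± 0.26 (adjusted p = 0.00876 and 0.00207). With library totals alone it was at -0.70 in virgin islets and not called there (edgeR adjusted p = 0.0681).

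*Vamp7* went the other way. It was at 85.0, 64.8 and 69.9 CPM in virgin S-961, at 57.7, 63.6, 41.8 and 66.7 CPM in multipara S-961, at 33.0 and 26.1 CPM in virgin untreated and at 24.03 and 32.1 CPM in multipara untreated islets. The treatments did not overlap, with multipara S-961 replicate 3 the lowest of the S-961 libraries. The log2 fold change was 1.31 ± 0.22 in virgin and 1.04 ± 0.21 in multipara islets (adjusted p = 0.00147 and 0.00401), and in multipara islets it was not called without multipara untreated replicate 1 (adjusted p = 0.0562). *Vamp1*, a close relative of *Vamp2* best known from neurons, rose with log2 fold changes of 0.76 ± 0.24 and 0.997 ± 0.235, from 7.42 to 9.45 CPM over the untreated libraries to 12.3 to 22.3 CPM over the S-961 libraries, and its adjusted p in multipara islets was 0.0757 without that library. *Vamp4*, a VAMP of the trans-Golgi network, rose in virgin islets (0.56 ± 0.20, adjusted p = 0.0445) and was at -0.07 ± 0.18 in multipara islets.

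*Vamp2* itself was not called. It was at 275.9, 285.3 and 269.8 CPM in virgin S-961, at 226.6, 194.9, 191.2 and 285.4 CPM in multipara S-961, at 209.7 and 214.9 CPM in virgin untreated and at 201.7 and 258.0 CPM in multipara untreated islets. In virgin islets the S-961 libraries lay above the untreated ones (0.38 ± 0.18, adjusted p = 0.129), and in multipara islets the groups overlapped (-0.03 ± 0.17, adjusted p = 0.892). *Vamp3*, the broadly expressed cellubrevin, stood at -0.09 ± 0.13 and -0.08 ± 0.13. Within a library, the ratio of *Vamp8* to *Vamp2* per kb was 0.220 to 0.462 with S-961 and 0.888 to 1.08 without, and that of *Vamp7* to *Vamp2* was 0.329 to 0.490 and 0.179 to 0.237. These ratios do not depend on scaling between libraries. Like the ratios of other pairs given below, they were chosen after the values were seen and are given without a test.

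Of the plasma membrane syntaxins, none of 6 tested rose, and 2 fell in virgin and 1 in multipara islets. *Stx4a*, which is used in insulin granule fusion and in glucose transporter insertion, was at 19.3, 19.0 and 24.3 CPM in virgin S-961, at 22.4, 26.9, 19.2 and 21.6 CPM in multipara S-961, at 44.2 and 47.7 CPM in virgin untreated and at 49.6 and 49.3 CPM in multipara untreated islets. The S-961 libraries were all far below the untreated libraries, at log2 fold changes of -1.14 ± 0.16 and -1.13 ± 0.15 (edgeR adjusted p = 0.000508 and 0.000345).

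*Stx1a*, the syntaxin paired with SNAP25 in neurons and beta cells, was at 9.86, 10.5 and 14.5 CPM in virgin S-961, at 10.6, 13.4, 10.5 and 11.8 CPM in multipara S-961, at 8.38 and 10.5 CPM in virgin untreated and at 8.80 and 8.95 CPM in multipara untreated islets. It was not called, with log2 fold changes of 0.30 ± 0.20 and 0.38 ± 0.20 (adjusted p = 0.276 and 0.145). *Stx3*, a syntaxin of granule-to-granule fusion, was at 0.02 ± 0.13 and 0.12 ± 0.12. *Stx2* fell in virgin islets (-0.55 ± 0.15, adjusted p = 0.0168) and was at -0.19 ± 0.15 in multipara islets. With library totals alone *Stx2* was at -0.08 in virgin islets and not called (edgeR adjusted p = 0.772). The ratio of *Stx4a* to *Stx1a* per kb was 1.88 to 2.39 with S-961 and 5.13 to 6.35 without.

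Among the 8 syntaxins of endosomes, the Golgi apparatus and the endoplasmic reticulum, 1 rose and 2 fell in each parity group. *Stx8*, which forms the late endosomal SNARE complex together with syntaxin 7, Vti1b and VAMP8, had the smallest p-value of all 48 genes in both groups. It was at 14.3, 14.2 and 16.2 CPM in virgin S-961, at 13.0, 17.7, 12.3 and 15.6 CPM in multipara S-961, at 45.0 and 42.8 CPM in virgin untreated and at 43.8 and 49.8 CPM in multipara untreated islets. Levels with S-961 were 2.94 times lower in virgin and 3.20 times lower in multipara islets, with no overlap. The log2 fold change was -1.56 ± 0.16 in virgin and -1.68 ± 0.15 in multipara islets (edgeR adjusted p = 0.00016 and 7.88e-05). Its partner *Stx7* was not called, at 0.14 ± 0.11 and 0.16 ± 0.10 (adjusted p = 0.346 and 0.237), and the ratio of *Stx8* to *Stx7* per kb was 0.0961 to 0.144 with S-961 and 0.373 to 0.420 without.

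*Stx6* and *Stx16*, which act together in transport to the trans-Golgi network, moved in opposite directions. *Stx6* fell from 46.7 to 55.7 CPM over the untreated libraries to 29.0 to 36.9 CPM over the S-961 libraries, with log2 fold changes of -0.51 ± 0.13 and -0.65 ± 0.12 (adjusted p = 0.0104 and 0.00224). *Stx16* rose from 33.7 to 37.3 CPM to 48.4 to 61.6 CPM, with 0.48 ± 0.12 and 0.62 ± 0.12 (adjusted p = 0.00967 and 0.00228). Neither pair of ranges overlapped. With library totals alone *Stx6* was not called in either group, since its adjusted p reached 0.822 in virgin and 0.712 in multipara islets. *Stx12*, *Stx17*, *Stx5a* and *Stx18* were not called.

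**Figure D3:**
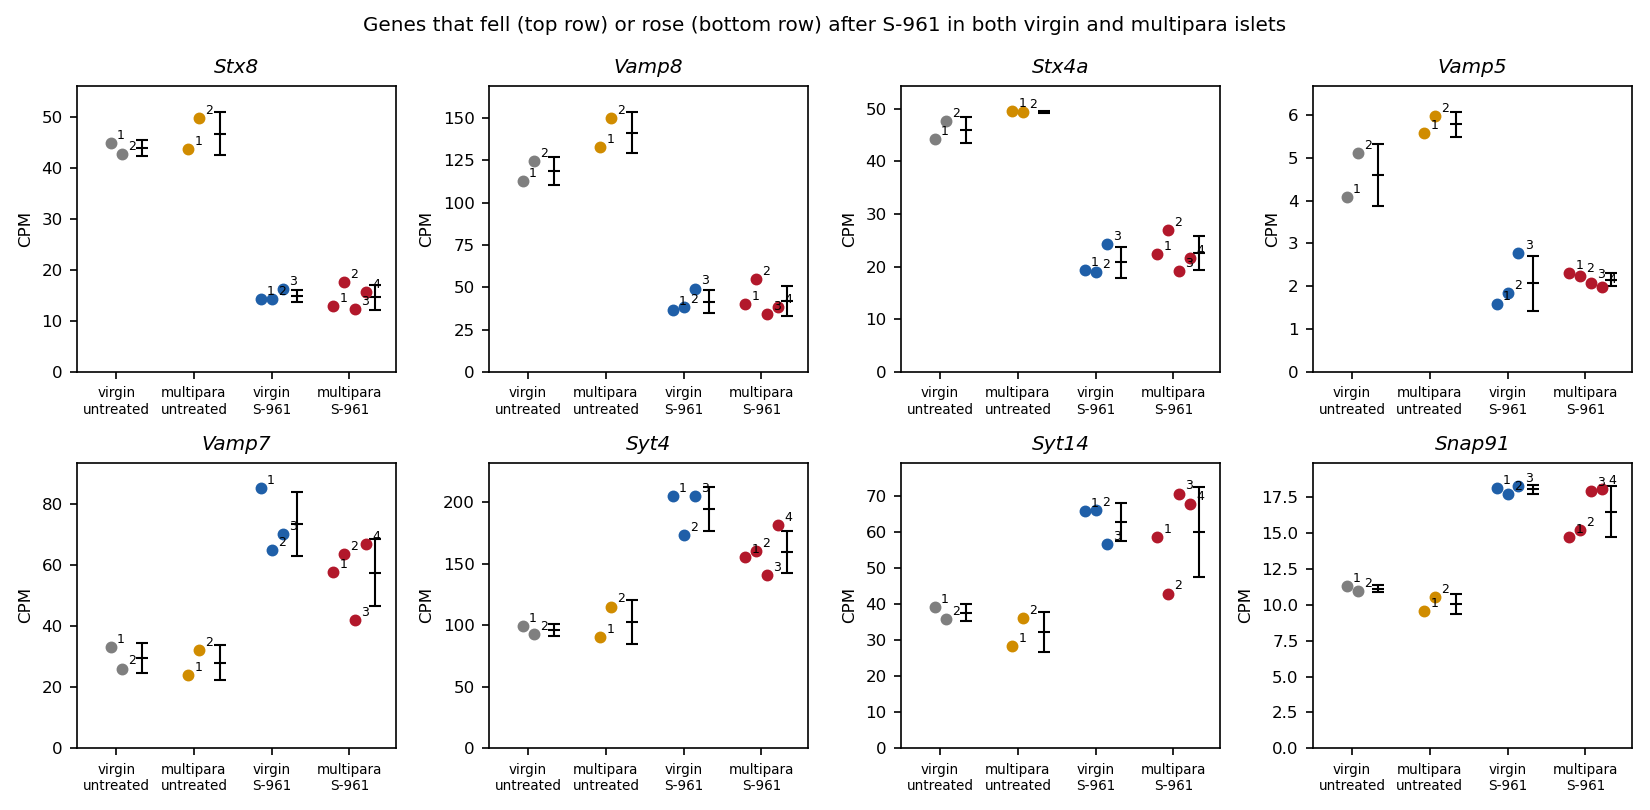
CPM of 8 genes in each library, numbered by replicate, with the mean and SD of each group beside the points. *Stx8*, *Vamp8*, *Stx4a* and *Vamp5* in the top row lie lower in all 7 S-961 libraries than in all 4 untreated libraries, and *Vamp7*, *Syt4*, *Syt14* and *Snap91* in the bottom row lie higher.

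The synaptotagmins that do not bind calcium moved in both directions, with 2 higher and 5 lower of 8 tested in virgin islets and 2 higher and 2 lower in multipara islets. *Syt13* was at 792.5, 788.6 and 688.5 CPM in virgin S-961, at 848.2, 744.1, 930.2 and 744.9 CPM in multipara S-961, at 1261 and 1244 CPM in virgin untreated and at 1048 and 1257 CPM in multipara untreated islets. It was lower in every S-961 library, by -0.73 ± 0.15 and -0.50 ± 0.15 on the log2 scale (edgeR adjusted p = 0.0045 and 0.0217). With library totals alone it was at -0.26 in virgin and 0.10 in multipara islets and was called in neither (adjusted p = 0.264 and 0.621).

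*Syt4*, which rises as beta cells mature and lowers their sensitivity to calcium, was at 205.2, 173.6 and 205.0 CPM in virgin S-961, at 155.6, 160.3, 140.5 and 181.3 CPM in multipara S-961, at 99.6 and 92.8 CPM in virgin untreated and at 90.3 and 115.2 CPM in multipara untreated islets. It rose by 1.02 ± 0.16 in virgin and 0.63 ± 0.15 in multipara islets (adjusted p = 0.000947 and 0.00787), with no overlap between the groups. In multipara islets it was at 0.47 and not called without multipara untreated replicate 1 (adjusted p = 0.108). The difference between these effects was -0.38 ± 0.21 (adjusted p = 0.785). The counts of *Syt4* contained fractions of reads in all 11 libraries, and its exons overlap a gene on the opposite strand. *Syt14* rose in both groups (0.74 ± 0.20 and 0.90 ± 0.20, adjusted p = 0.0156 and 0.00539), from 28.3 to 39.2 CPM without S-961 to 42.9 to 70.6 CPM with it. Its adjusted p in multipara islets was 0.0692 without that library. *Syt11*, which restrains vesicle fusion and endocytosis, fell in both (-0.75 ± 0.19 and -0.51 ± 0.18, adjusted p = 0.0108 and 0.0431), from 43.6 to 49.5 CPM to 23.6 to 42.8 CPM. With library totals alone *Syt11* was at -0.28 in virgin and 0.09 in multipara islets and was called in neither (adjusted p = 0.384 and 0.756), and in multipara islets its adjusted p was 0.0953 without multipara untreated replicate 1 and 0.0843 without multipara S-961 replicate 4.

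Of the 7 calcium-binding synaptotagmins tested, 3 fell in virgin islets and none was called in multipara islets. *Syt7*, a calcium sensor of insulin granules, was at 234.7, 224.3 and 166.6 CPM in virgin S-961, at 228.7, 176.5, 229.8 and 222.8 CPM in multipara S-961, at 199.5 and 217.8 CPM in virgin untreated and at 177.7 and 224.3 CPM in multipara untreated islets. The groups overlapped throughout, and the log2 fold changes were 0.00 ± 0.18 and 0.09 ± 0.18. *Syt9*, a calcium sensor of insulin granules as well, fell in virgin islets (-0.80 ± 0.18, adjusted p = 0.00605) from 21.0 and 20.6 CPM to 13.4, 13.3 and 9.06 CPM. With library totals alone it was at -0.33 there and not called (edgeR adjusted p = 0.263). In multipara islets *Syt9* was at 18.1 and 18.5 CPM without S-961 and at 17.1, 13.5, 16.2 and 13.7 CPM with it (-0.28 ± 0.17, adjusted p = 0.224). The difference between these effects was 0.52 ± 0.25 (adjusted p = 0.766). *Syt5* was at 0.08 ± 0.22 and 0.55 ± 0.21 (adjusted p = 0.802 and 0.0615). Per kb, the ratio of *Syt4* to *Syt7* was 1.18 to 2.37 with S-961 and 0.819 to 0.988 without, and that of *Syt13* to *Syt7* was 6.66 to 8.39 and 11.2 to 12.6.

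Among the Munc18 genes, *Stxbp2* had a log2 fold change with S-961 of 0.09 ± 0.10 (SE) in virgin and -0.18 ± 0.09 in multipara islets (edgeR adjusted p = 0.516 and 0.145) and *Stxbp3* one of 0.26 ± 0.14 and 0.07 ± 0.13 (adjusted p = 0.17 and 0.717), and neither was called. Of the 4 other syntaxin binding proteins, 2 rose in each group and none fell. *Stxbp5l*, which encodes a tomosyn that occupies syntaxin and SNAP25 and so restrains SNARE assembly, was at 8.10, 9.72 and 3.75 CPM in virgin S-961, at 7.67, 3.43, 9.19 and 7.69 CPM in multipara S-961, at 3.14 and 2.58 CPM in virgin untreated and at 2.90 and 2.96 CPM in multipara untreated islets. It varied widely among S-961 libraries, and its rise of 1.33 ± 0.46 and 1.25 ± 0.44 was close to the threshold (adjusted p = 0.042 and 0.046). *Stxbp6*, which encodes amisyn, rose in virgin islets (0.69 ± 0.17, adjusted p = 0.0108), and *Stxbp4*, a partner of syntaxin 4, rose in multipara islets (0.64 ± 0.19, adjusted p = 0.0208). Without multipara untreated replicate 1 neither *Stxbp5l* nor *Stxbp4* was called in multipara islets (adjusted p = 0.181 and 0.145).

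Of the 4 SNAPs, 1 rose in each group. *Snap25*, the SNAP of neurons and endocrine cells, was at 115.5, 119.0 and 110.4 CPM in virgin S-961, at 109.4, 119.9, 93.4 and 111.8 CPM in multipara S-961, at 93.7 and 88.5 CPM in virgin untreated and at 74.4 and 90.5 CPM in multipara untreated islets. Every S-961 library lay above the untreated libraries of its parity group, and the rise was called in multipara islets (0.40 ± 0.13, edgeR adjusted p = 0.0344) and not in virgin islets (0.34 ± 0.14, adjusted p = 0.0773). The call in multipara islets was lost without multipara untreated replicate 1 (0.27, adjusted p = 0.297) and without multipara S-961 replicate 4 (0.38, adjusted p = 0.0593). *Snap23*, its broadly expressed relative, rose in virgin islets from 26.4 and 20.7 CPM to 42.3, 40.0 and 42.0 CPM (0.81 ± 0.23, adjusted p = 0.0194). In multipara islets *Snap23* was at 25.5 and 24.02 CPM without S-961 and at 35.9, 31.2, 22.4 and 44.1 CPM with it, with overlap (0.43 ± 0.22, adjusted p = 0.147). Unlike the ratios above, that of *Snap23* to *Snap25* per kb overlapped, at 0.38 to 0.624 with S-961 and 0.370 to 0.5425 without. *Snap91*, the clathrin assembly protein, rose in both groups (0.70 ± 0.14 and 0.72 ± 0.14, adjusted p = 0.00338 and 0.00255).

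Parity was compared within each treatment, on the libraries of that treatment. With S-961, edgeR called none of the 48 genes and none of 16784 genes (0.0% called, smallest adjusted p = 0.315). At an unadjusted p under 0.05 there were 6 of these genes (12.5%) and 1630 of all genes (9.71%), and ranges did not overlap for 5 of the 48 (10.4%) and for 8.87% of all genes. DESeq2 called 369 genes, of which *Syt1* was the sole one of the set (adjusted p = 0.0466), and with the library labelled multipara S-961 replicate 4 left out edgeR called 525 genes, of which *Syt6* was the sole one of the set (adjusted p = 0.0179). Without S-961, edgeR called none of the 48 and none of 15812 genes (0.0% called, smallest adjusted p = 0.0561), DESeq2 called 56 genes and none of the set, and edgeR called 53 genes and none of the set without multipara untreated replicate 1. Without multipara untreated replicate 2 it called 1738 genes, with *Stx11* higher and *Syt1* lower in multipara islets. An unadjusted p under 0.05 was reached by 6 of these genes (12.5%) and by 889 of all genes (5.62%). Ranges did not overlap for 21 of the 48 genes (43.8%) in the untreated comparison, which has 2 libraries a side, against 36.0% of all genes. For the difference between the S-961 effects of the parity groups, edgeR called none of 17996 genes (0.0% called, smallest adjusted p = 0.222). An unadjusted p under 0.05 was reached by 4 of the 48 (8.33%) and 1179 of all genes (6.55%), and DESeq2 called 79 genes, among them *Syt1* (adjusted p = 0.00216). The 10 and 2 genes called in a single parity group were therefore not shown to respond differently to S-961 by edgeR.

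*Syt1*, the calcium sensor of fast transmitter release, had the smallest p-value of the set in all 3 of these comparisons. It was at 5.50, 6.43 and 3.72 CPM in virgin S-961 and at 9.16, 10.3, 10.3 and 7.03 CPM in multipara S-961, so that all libraries labelled multipara lay above all labelled virgin (log2 fold change 0.84 ± 0.24, unadjusted p = 0.00597, edgeR adjusted p = 0.315). Without S-961 it was at 10.8 and 13.8 CPM in virgin and at 5.45 and 6.18 CPM in multipara islets, in the opposite order (-1.08 ± 0.19, unadjusted p = 0.00343, adjusted p = 0.719). Which order *Syt1* had with S-961 rests on the labels of those libraries, which were not tested. The difference between its S-961 effects was 1.90 ± 0.36 (unadjusted p = 0.000283, adjusted p = 0.372). *Syt1* fell with S-961 in virgin islets (-1.24 ± 0.25, adjusted p = 0.00377), and in multipara islets it was at 0.66 ± 0.25 (adjusted p = 0.0606). Over the alternatives, the adjusted p of the difference ran from 0.00216 to 1.0, and its sign was positive in all 18.

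*Syt6* and *Syt17*, chosen after their values were seen, had the same order of groups at lower levels. *Syt6* was at 0.927, 0.785 and 0.647 CPM in virgin S-961, at 2.14, 3.73, 3.58 and 0.680 CPM in multipara S-961, at 3.06 and 5.24 CPM in virgin untreated and at 1.92 and 2.77 CPM in multipara untreated islets. *Syt17* was at 0.309, 0.785 and 0.874 CPM, at 1.98, 2.33, 2.65 and 0.798 CPM, at 2.30 and 2.78 CPM and at 0.983 and 1.20 CPM in the same groups. For both genes the library labelled multipara S-961 replicate 4 lay within the range of the virgin S-961 libraries. Both fell with S-961 in virgin islets (-2.39 ± 0.58 and -1.95 ± 0.53, edgeR adjusted p = 0.00911 and 0.0149).

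For *Prph*, the intermediate filament gene of peripheral neurons, the group means had the same order as for these 3 genes. Summed markers of alpha, delta and nerve cells shared only the direction within each treatment, with a lower mean in multipara than in virgin islets without S-961 and a higher one with it, and their mean in multipara islets was lower with S-961 than without. *Gcg* was at 12490 to 13350 CPM in virgin S-961, 14530 to 21630 CPM in multipara S-961, 44610 and 50370 CPM in virgin untreated and 23750 and 34810 CPM in multipara untreated islets. The 7 alpha cell markers summed to 14170 to 15660, 16430 to 24380, 50520 to 57280 and 26340 to 38850 CPM in these groups, the 4 delta cell markers to 1945 to 2765, 1997 to 3494, 5354 to 6347 and 3451 to 4100 CPM, and the 8 Schwann and nerve cell markers to 55.3 to 67.9, 64.4 to 85.7, 95.2 to 110.5 and 88.8 to 93.1 CPM. Of the latter, *Prph* was at 0.712 to 1.99, 2.28 to 9.86, 7.42 and 12.7, and 3.35 and 4.60 CPM. The part of these cells in the levels of *Syt1*, *Syt6* and *Syt17* was not tested.

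**Figure D4:**
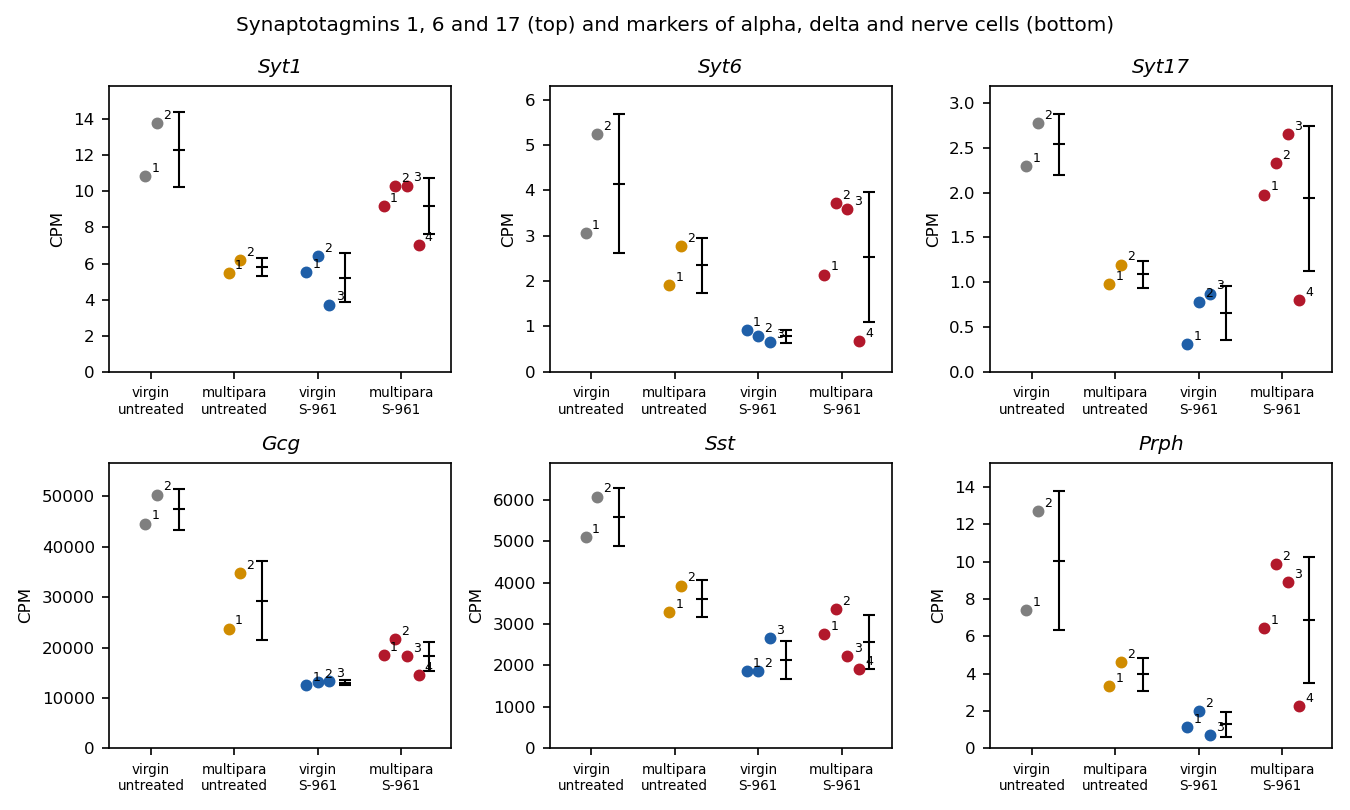
CPM of *Syt1*, *Syt6* and *Syt17* (top) and of *Gcg*, *Sst* and *Prph* (bottom) in each library, numbered by replicate, with the mean and SD of each group beside the points. In all 6 panels the group means fall from virgin to multipara without S-961 and rise from virgin to multipara with S-961, and multipara S-961 replicate 4 is the lowest of its group.

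Other genes of the set showed parity differences that did not pass the test. With S-961, *Vamp4* was at 89.1, 91.6 and 120.3 CPM in virgin and at 67.4, 73.4, 55.1 and 88.2 CPM in multipara islets, lower in every library labelled multipara (-0.49 ± 0.18, edgeR adjusted p = 0.411). *Syt2* was at 0.75 ± 0.32 (adjusted p = 0.491), *Syt9* at 0.36 ± 0.18, *Syt4* at -0.27 ± 0.13, *Vamp7* at -0.34 ± 0.17 and *Snap23* at -0.30 ± 0.19. Without S-961, *Vamp8* was higher in both multipara libraries (0.25 ± 0.09, adjusted p = 0.719), as was *Stxbp2* (0.20 ± 0.07), and *Syt5* was lower (-0.25 ± 0.08). *Stx11*, a syntaxin of blood cells, was at 4.02 CPM in multipara untreated replicate 1 and at 0.189 to 1.24 CPM in every other library. That is the library with the high macrophage and red cell sums, which held 261.9 CPM of 8 lymphocyte markers as well, against 4.59 to 38.1 CPM in the others. The part of blood cells in this value was not tested.

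A further list of 55 genes that act with these proteins was examined (complexins, Munc13 and CAPS priming factors, Rab3 and Rab27 with their effectors, NSF and its adaptors, active zone and exocyst proteins). With S-961, 15 rose and 10 fell of 52 tested in virgin islets, and 11 rose and 7 fell in multipara islets, with median log2 fold changes of 0.12 and 0.23. These are 48.1 and 34.6% of the list, against 36.5 and 37.6% called over all genes. The priming factors *Unc13a* (1.31 ± 0.20 and 1.25 ± 0.20), *Unc13b* (0.93 ± 0.15 and 0.69 ± 0.15) and *Cadps* (0.77 ± 0.21 and 0.71 ± 0.20) rose in both groups. So did *Napg*, an adaptor of the NSF ATPase that takes SNARE bundles apart (1.17 ± 0.17 and 0.98 ± 0.16). *Erc1*, *Exoc2*, *Exoc5*, *Napb*, *Rimbp2* and *Sytl5* rose in both groups too. Among the genes that fell in both were *Cplx2*, a complexin (-1.11 ± 0.22 and -1.02 ± 0.21), and *Rab27a*, which tethers granules at the plasma membrane (-0.71 ± 0.16 and -0.60 ± 0.15). *Rab3b*, *Exoc7*, *Rims3* and *Rph3al* fell in both as well. *Rab3b* had the smallest p-value of the list in each group (-1.89 ± 0.15 and -1.30 ± 0.14). *Unc13a* was at 81.5 to 135.8 CPM in the S-961 libraries and 44.0 to 50.03 CPM in the untreated libraries, and *Cplx2* at 222.0 to 398.5 and 535.8 to 676.1 CPM. Neither pair of ranges overlapped. Between parity groups and for the difference between S-961 effects edgeR called none of the list. An unadjusted p under 0.05 was reached by 9 genes with S-961 (17.6%, against 9.71% of all genes), 3 without (6.0%, against 5.62%) and 6 for the difference (11.5%, against 6.55%), and DESeq2 called 2, 0 and 0 of them.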

How the data were processed

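Estimated read counts per gene (expected counts) in 11 mouse islet libraries were used as deposited by the authors, without normalization. Libraries were made from poly(A) RNA with a strand-specific kit, and the submitters' processing notes name STAR, RSEM and the builds GRCm38 and mm10, whereas versions, settings and the annotation are not given in the sources used here. All 55536 genes matched GENCODE M21 on GRCm38, which gave positions and exon lengths. Counts were rounded, and 6 of the 52 genes had values that were not whole, as happens when reads are shared between genes. These were *Syt4* and *Stx18* in all 11 libraries, *Syt11* in 9, *Syt7* in 7, *Syt12* in 6 and *Snap47* in 1. Exons of 10 of the 52 genes overlap another gene, among them those of *Syt4*, *Syt7*, *Stx18* and *Stx4a*.

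The edgeR package (version 4.0.16, R 4.3.3) was used with TMM scaling, filterByExpr (minimum count 10, minimum total 15), the quasi-likelihood F-test and Benjamini-Hochberg adjustment over all genes tested, with a threshold of 0.05. A standard error is the absolute log2 fold change divided by the square root of F. Parity comparisons were fitted on the libraries of their own treatment, the others on all 11. The biological coefficient of variation was 0.266 to 0.293, and at these depths it exceeded the counting error for all but rarely read genes. Samples were grouped by their labels. No library repeated another, since chi-square per gene was 8.90 or more between libraries of a group. Groups were said not to overlap where all CPM of the one exceeded all of the other. Promoters came from RefSeq. Fits were tested on simulated data. DESeq2 1.42.0, other scalings, no filter, a replicate block and leaving out libraries were tried as alternatives. Leaving out multipara S-961 replicate 4 and multipara untreated replicate 1 together was chosen after seeing the data.

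The genes, the lists of related genes and cell markers, and the rule for naming genes were chosen with earlier results of these data known. Named were 15 core secretory genes, in each comparison up to 10 called genes with the smallest p-values, and the 3 that changed most upward and the 3 that changed most downward among those with a mean log2 CPM (prior count 2) of at least 2. Further genes are named to complete a group, and 2 of the genes are counted but not reported here by name. Summaries and plots were produced in Python (3.11.15) using pandas (2.3.3) and matplotlib (3.10.9).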

Additional observations from a re-analysis of the deposited data

Results flagged for a closer look

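*Syt7*, the calcium sensor of insulin granules, had a single low value among the libraries labelled multipara S-961. It was at 176.5 CPM in replicate 2, and at 228.7, 229.8 and 222.8 CPM in replicates 1, 3 and 4. On the log2 scale the gap to the next library was 0.882 of the range of the group, above the critical value of Dixon's test for 4 values. Of 29 named genes examined in this group this was the 1 that passed, and chance alone passes about 1 in 20.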

How the results depend on the processing

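Counts of genes called depended on the library set and the tool. With S-961, edgeR called 0 genes between parity groups. DESeq2 called 369 genes and 1 of the 48, and a replicate block called 342 genes. Leaving out single libraries gave 0 to 525 genes and 0 to 1 of the 48, with the highest value without multipara S-961 replicate 4. Without S-961 the count of 0 became 3 with no filter and 56 with DESeq2, and leaving out single libraries gave 0 to 1738 genes and 0 to 2 of the 48, with the highest value without multipara untreated replicate 2. For the difference between S-961 effects, the count of 0 became 4 with no filter, 79 with DESeq2 (1 of the 48), 34 with a replicate block, 50 without multipara S-961 replicate 4 and multipara untreated replicate 1, and 0 to 45 genes with 0 of the 48 on leaving out single libraries. For S-961 in virgin islets, leaving out single libraries gave 3053 to 6121 genes in place of 6562, and 8 to 24 of the 48 in place of 24. In multipara islets it gave 3618 to 7451 in place of 6768, and 9 to 21 in place of 16. There, library totals alone called 34 of the 48, a fit of the compared groups alone called 4428 genes, and leaving out multipara S-961 replicate 4 and multipara untreated replicate 1 called 3632 genes and 7 of the 48. Beyond the smaller number of libraries, the cause was not tested.

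Of 846 values for named genes under the alternatives, 737 kept direction and side of the threshold, 56 lost the call, 26 gained one and 27 changed sign. Of the genes called by edgeR, *Syt11* (0.0898) and *Syt13* (0.10) in multipara islets changed sign, under library totals alone, which do not correct for the fall in insulin transcripts. All other changes of sign concerned genes that edgeR did not call with TMM scaling. In virgin islets *Syt7* was at 0.019 with DESeq2 and with its size factors, at 0.0182 with no filter, at 0.0197 in a fit of the compared groups alone, at 0.0348 with a replicate block, at 0.47 with library totals and at -0.0942 to 0.14 on leaving out single libraries. *Stx3* was at -0.0836 with upper-quartile scaling, -0.0076 with a replicate block and -0.0153 to 0.0671 on leaving out libraries, *Syt5* at -0.0293 with upper-quartile scaling and -0.0272 to 0.13, and *Vamp3* at 0.37 with library totals. In multipara islets library totals gave 0.31 for *Syt9*, 0.56 for *Vamp2* and 0.51 for *Vamp3*. *Vamp2* was at 0.0172 with no filter and at -0.20 to 0.16 on leaving out single libraries and -0.34 without multipara S-961 replicate 4 and multipara untreated replicate 1, *Vamp3* at -0.14 to 0.0042, and *Syt7* at -0.0841 without multipara S-961 replicate 4 and multipara untreated replicate 1 and at -0.0637 to 0.28 on leaving out single libraries.

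Whether replicate numbers paired the libraries could not be decided from these values. Same-numbered virgin and multipara S-961 libraries correlated at 0.0116 to 0.0931 in their deviations from the group means. Differently numbered ones correlated at -0.0817 to 0.0697. The 2 untreated pairs correlated at 0.2804, necessarily the same value, because with 2 libraries a group the deviations mirror each other. With a replicate block, 20 of the 48 genes were called in virgin islets after S-961 and 14 in multipara islets. Over all 17996 genes tested it called 5971 and 5630.

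Each untreated group held 2 libraries. The 4 genes that were not tested, and *Stx11*, *Syt12*, *Syt15* and *Syt17*, were too low for small differences to be detectable at this depth.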
